A study of Caenorhabditis elegans with 6 samples.

Results

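The large ribosomal subunit genes of Caenorhabditis elegans were followed in whole L1 larvae whose mothers had been fed elt-2 RNAi or an empty vector. The set was a fixed list of 47 genes, the rpl genes together with rla-0, rla-1 and rla-2. It was picked by gene name and not by a cut on measured values, but with earlier results of these data known. All 47 were found among the 20351 genes of the count table, and all 47 passed the filter on low counts that left 10063 genes to be tested. The list does not hold every large subunit gene, because 6 further genes carry an rpl or rplp name in RefSeq, among them Y37E3.8 (rpl-27A), C09H10.2 (rpl-36A) and C37A2.7 (rplp-2.1).

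Each ribosome has a small subunit, which reads the mRNA, and a large subunit, which joins amino acids into a chain and lets the chain leave through a tunnel. The large subunit is built in the nucleolus and cytoplasm from ribosomal RNAs and a set of proteins, with a stalk of acidic proteins (rla-0, rla-1 and rla-2) that brings in the elongation factors. Every cell that makes protein needs both subunits, and ribosomal protein mRNAs are among the most abundant in animal cells.

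Both groups were progeny of N2, the wild-type strain, and by the labels differed only in what the mothers ate. The mothers received either bacteria with elt-2 RNAi or bacteria with an empty vector on Day 1 of adulthood, for 24 hours, and were then bleached for their embryos, which hatched overnight in S-Basal, a medium without food. There were 3 libraries from vector-fed mothers (Control A, B and C) and 3 from RNAi-fed mothers (elt-2 RNAi A, B and C), described as biological triplicates of whole worms. The assay was 3SEQ, in which reads come from the 3′ ends of poly(A) RNA, so a count was not divided by transcript length when genes were compared.

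The libraries held between 13700707 and 22124319 counts. For the targeted gene, elt-2, which encodes a GATA factor of the intestine, the counts were 32, 40 and 21 after vector and 21, 34 and 44 after RNAi. A reduction was not detectable at this depth (log2 fold change -0.48, adjusted p = 0.660 in edgeR's quasi-likelihood test with TMM). The paper reports lower elt-2 RNA in L1 progeny of RNAi-fed mothers by qRT-PCR, and larval arrest. The evidence for the knockdown is thus from those assays and not from these counts. Whole-animal RNA was measured, and fewer cells of a type and less RNA per cell cannot be told apart. Of 7 intestine markers, all were detected in every library, and their summed share of counts ran from 0.0425% to 0.0760% in Control and from 0.0102% to 0.0357% in elt-2 RNAi. That gap came from asp-1, an intestinal protease gene: the other 6 markers summed to between 0.0139% and 0.0337% in Control and between 0.00855% and 0.0225% in elt-2 RNAi, which overlap. Markers of epidermis, muscle, pharynx, neurons and germ line were present too, while of the adult yolk genes vit-2 and vit-5 had at most 1 count in any library and vit-6 had 6 to 17.

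The 47 genes took up between 17.1% and 27.8% of all counts in a library. Their share was 18.1%, 27.8% and 23.4% in Control A, B and C and 18.6%, 24.7% and 17.1% in elt-2 RNAi A, B and C. The mean share was 23.1% ± 4.88 (SD, n = 3) in Control and 20.1% ± 4.01 (SD, n = 3) in elt-2 RNAi. The groups overlapped, and within each of them library B was the highest. The 32 small subunit genes were steadier, at 25.3% to 30.2% of counts, so the counts on large subunit genes per count on small subunit genes ranged from 0.659 in Control A to 0.977 in Control B.

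Levels were given as CPM, the counts of a gene when the total of each library is set to 1000000. By the mean over the 6 libraries, 7 genes lay above 10000 CPM, 23 between 1000 and 10000, 13 between 100 and 1000 and 4 below 100. The highest mean CPM was 4258 times the lowest, and 29 of the 47 genes were among the 100 genes with the most counts in the table. The plot of levels by library shows that this spread was not the same from gene to gene: some genes held their level in all 6 libraries while others moved by more than 10-fold among libraries of one group.

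**Figure D1:**
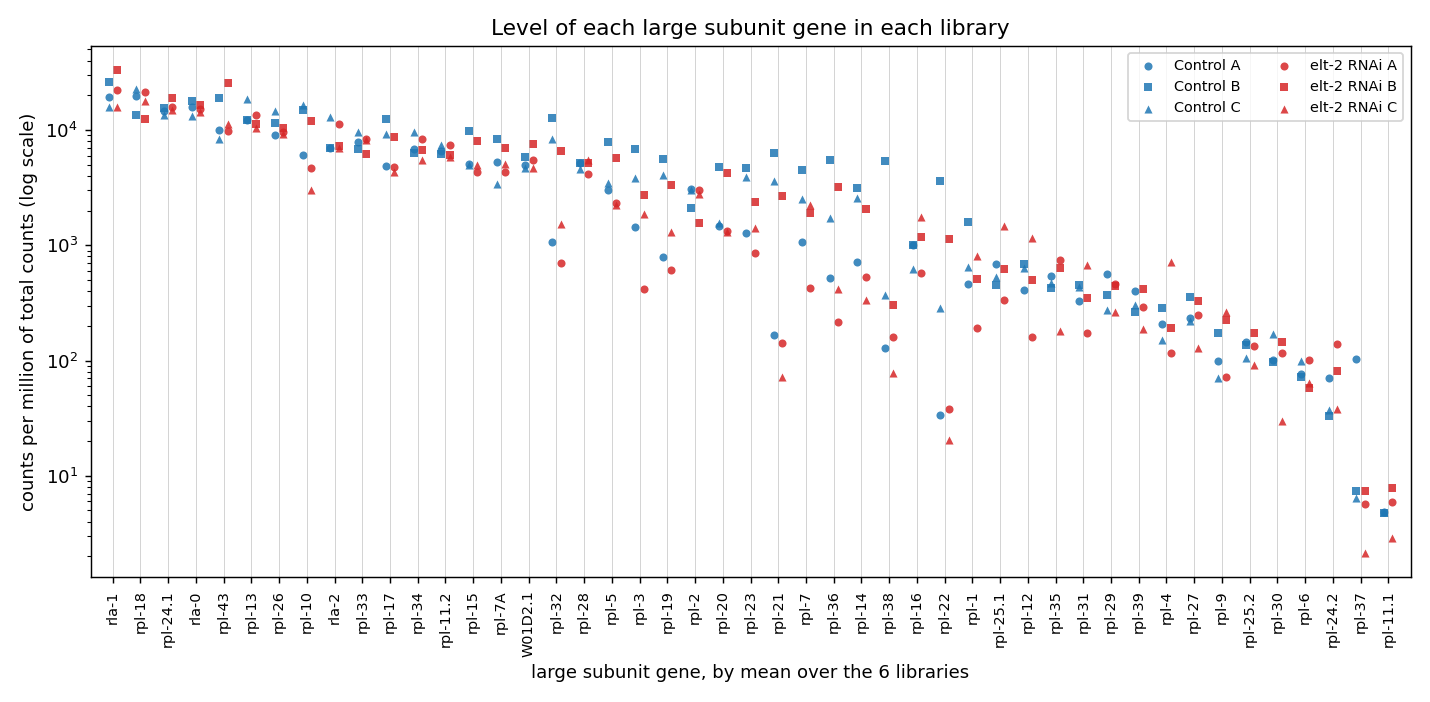
Level of each of the 47 large subunit genes in CPM (log axis), 1 point per library, ordered by the mean over the 6 libraries. Genes such as rpl-24.1 sit in a narrow band, whereas rpl-22, rpl-21 and rpl-38 spread over more than 10-fold within Control.

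In the stalk genes and rpl-18 the highest CPM of a group was at most 2.08 times the lowest at library size. With TMM, a scaling described below, this ratio in Control exceeded 2 in all 3 stalk genes and reached 2.61 in rla-1. In rpl-18 it was 1.58 in Control with TMM. In elt-2 RNAi with TMM the largest ratio among these genes was 1.81, in rla-1. The CPM values that follow are at library size. The stalk base gene rla-0 (F25H2.10) had 15914, 17969 and 13168 CPM in Control A, B and C and 15341, 16338 and 14423 CPM in elt-2 RNAi A, B and C. The acidic stalk gene rla-1 (Y37E3.7) had the highest mean of all, with 19370.2, 25969 and 15678 CPM in Control and 22285, 33087 and 15877 CPM in elt-2 RNAi. Its partner rla-2 (Y62E10A.1) stood lower, at 7028, 6999 and 12924 CPM in Control and 11329.5, 7247 and 6947 CPM in elt-2 RNAi. In all 3 stalk genes the groups overlapped. Library B was the highest in both groups for rla-0 and rla-1, but not for rla-2. The gene of the structural protein rpl-18 (Y45F10D.12) had 19599, 13556 and 22806 CPM in Control and 21373, 12333 and 17712 CPM in elt-2 RNAi, with library B the lowest in both groups.

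Where 2 genes of the list share a number, one was in most cases far above the other. The protein of rpl-11 binds 5S ribosomal RNA, and its counts came almost wholly from rpl-11.2 (F07D10.1), with 6528, 6199 and 7432 CPM in Control and 7351, 6113 and 5882 CPM in elt-2 RNAi. The second copy, rpl-11.1 (T22F3.4), had the lowest mean CPM of the list, at 4.89, 4.76 and 4.83 CPM in Control and 5.91, 7.77 and 2.89 CPM in elt-2 RNAi. Both copies overlapped between groups.

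A similar distance separated rpl-24.1 (D1007.12), a subunit gene, from rpl-24.2 (C03D6.8), which RefSeq names rsl-24D1 and whose counterpart in Saccharomyces cerevisiae is an assembly factor that leaves before the ribosome is mature. The CPM of rpl-24.1 was 14638, 15643 and 13459 in Control and 15899, 19112 and 14904 in elt-2 RNAi. That of rpl-24.2 was 70.7, 33.2 and 36.9 in Control and 139.8, 81.9 and 37.7 in elt-2 RNAi. In the WBcel235 annotation all 684 bases of rpl-24.2 lie within C03D6.1 on the opposite strand, a gene with 68 to 170 counts per library, and whether counting used strand is not given in the sources used here.

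The rpl-25 pair, whose protein sits at the mouth of the exit tunnel, was closer. The CPM of rpl-25.1 (F55D10.2) was 688, 456 and 533 in Control and 332, 624 and 1476 in elt-2 RNAi, and that of rpl-25.2 (F52B5.6) was 145, 135 and 105 in Control and 135, 174 and 90.6 in elt-2 RNAi. The gene W01D2.1, which RefSeq names rpl-37.1, had 4974, 5777 and 4706 CPM in Control and 5473, 7518 and 4636 CPM in elt-2 RNAi. The gene listed as rpl-37 (C54C6.1, rpl-37.2 in RefSeq) had 103 CPM in Control A, at most 7.42 CPM in Control B and C, and at most 7.36 CPM in the elt-2 RNAi libraries. The paper's methods scale each gene by the total of uniquely mapped reads, and the sequences of the paired genes were not compared here. How reads that match both genes of a pair were handled is not known, so the level of the lower member is uncertain.

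A gene was called sharply different between replicates when its highest CPM within a group was more than 2 times its lowest. At library size this held for 21 of 47 genes (44.7%) in Control, against 69.3% of all genes tested and 53.5% of the 673 tested genes with a mean of at least 1000 counts, and for 10 of 32 small subunit genes. In elt-2 RNAi it held for 30 of 47 genes (63.8%), against 54.9% of all genes tested and 53.5% of those with a mean of at least 1000 counts, and for 14 of 32 small subunit genes. It held in both groups for 19 of 47 (40.4%), against 40.4% of all genes tested and 32.5% of those with a mean of at least 1000 counts. At library size the share of large subunit genes was thus below the background in Control, above it in elt-2 RNAi, and in both groups together equal to that of all genes tested and above that of abundant genes. Among genes this abundant a ratio over 2 was common, and the genes differed in how far above 2 they went.

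Scaling by TMM (trimmed mean of M-values, which sets libraries level on the bulk of genes in place of the total) raised the number of such genes in Control and left it level in elt-2 RNAi. The TMM factors were 1.201, 0.616 and 0.885 for Control A, B and C and 1.39, 1.139 and 0.964 for elt-2 RNAi A, B and C, so TMM raised the values of Control B. After TMM the ratio exceeded 2 in 33 of 47 genes (70.2%) in Control, 30 in elt-2 RNAi and 25 in both. Among tested genes with a mean of at least 1000 counts the same held for 54.5% in Control, 57.1% in elt-2 RNAi and 39.7% in both, so in Control the list lay above abundant genes with TMM and below them with library size.

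The 6 sharpest genes were rpl-22, rpl-38, rpl-21, rpl-37, rpl-36 and rpl-32, all of them structural proteins of the subunit. rpl-22 (C27A2.2), on chromosome II, had 34.01, 3639 and 288 CPM in Control A, B and C and 37.8, 1138 and 20.3 CPM in elt-2 RNAi A, B and C. After TMM the same libraries stood at 28.3, 5908 and 325 and at 27.3, 1001 and 21.1 CPM. Library B was the highest in both groups and library A or C the lowest, so the ratio of highest to lowest was 107 in Control and 55.97 in elt-2 RNAi at library size and 208 and 47.4 after TMM.

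rpl-21 (C14B9.7), on chromosome III, had 167, 6327 and 3604 CPM in Control and 142, 2680.4 and 72.2 CPM in elt-2 RNAi, or 139, 10272 and 4077 and 102, 2357 and 74.9 CPM after TMM. Control B and C and elt-2 RNAi B were high, and the other 3 libraries were low. The ratio was 37.8 in Control and 37.1 in elt-2 RNAi at library size, and 73.7 and 31.5 after TMM.

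rpl-38 (C06B8.8), on chromosome V, whose mouse counterpart is known for a role in translating Hox mRNAs, had 129, 5375 and 367 CPM in Control and 161, 302 and 78.2 CPM in elt-2 RNAi. After TMM these were 108, 8727 and 415 and 116, 266 and 81.1 CPM. Control B alone was high, and the other 5 libraries overlapped. The ratio was 41.6 in Control and 3.87 in elt-2 RNAi at library size, and 81.1 and 3.28 after TMM.

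rpl-36 (F37C12.4) had 519, 5537 and 1724 CPM in Control and 214, 3214 and 419.8 CPM in elt-2 RNAi, and rpl-32 (T24B8.1) had 1077, 12786 and 8279 CPM in Control and 703, 6540.5 and 1518 CPM in elt-2 RNAi. Library B was again the highest in both groups and library A the lowest. The ratios at library size were 10.7 and 15.01 for rpl-36 and 11.9 and 9.30 for rpl-32, and after TMM they were 20.8 and 18.3 for rpl-36 and 23.1 and 11.4 for rpl-32.

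rpl-37 went another way. Its counts were 1407, 148 and 113 for Control A, B and C but 82, 144 and 47 for elt-2 RNAi A, B and C, so Control A alone was high. The ratio was 15.98 in Control and 3.47 in elt-2 RNAi at library size, and 11.8 and 2.94 after TMM. The gene has 1 exon and its 276 bases lie wholly inside pitp-1 on the opposite strand, and pitp-1 had 4.38, 1.86 and 3.30 CPM in Control and 2.92, 1.94 and 2.94 CPM in elt-2 RNAi. Control A was the highest library for pitp-1 too, and the part of that gene in the rpl-37 counts was not tested.

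**Figure D2:**
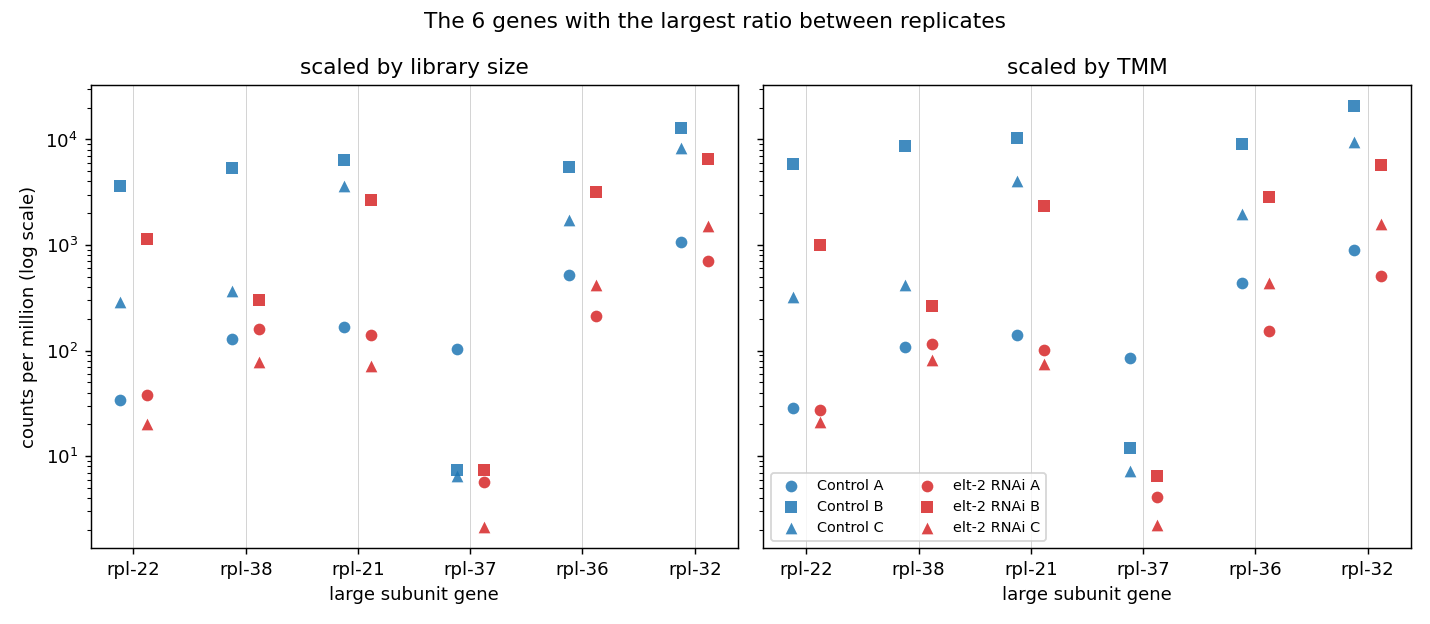
CPM (log axis) of the 6 genes with the largest ratio between replicates, in each of the 6 libraries, scaled by library size on the left and by TMM on the right. Library B (squares) is the highest in both groups for rpl-22, rpl-21, rpl-36 and rpl-32, rpl-38 is high in Control B alone and rpl-37 in Control A alone.

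The difference between replicates B and A had the same shape in both groups. The log2 ratio of B to A was above 0 in both groups for 29 of 47 genes, and above 1 in both for 13 genes. Across the 47 genes the ratio in Control followed that in elt-2 RNAi with Pearson's r = 0.81 and Spearman's rho = 0.84, and without rpl-21, rpl-22 and rpl-38 r was 0.80 over 44 genes. Over the 32 small subunit genes r was 0.59, and over 628 other genes with a mean of at least 1000 counts it was 0.54. The same measure for C against A gave r = 0.10 and for C against B r = 0.45 over the 47 genes. These are descriptions across genes, which are not independent replicates. All points of a ratio share the same library pair, and library A had fewer counts than library B in both groups, 13700707 against 19945971 in Control and 14378960 against 19558355 in elt-2 RNAi.

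**Figure D3:**
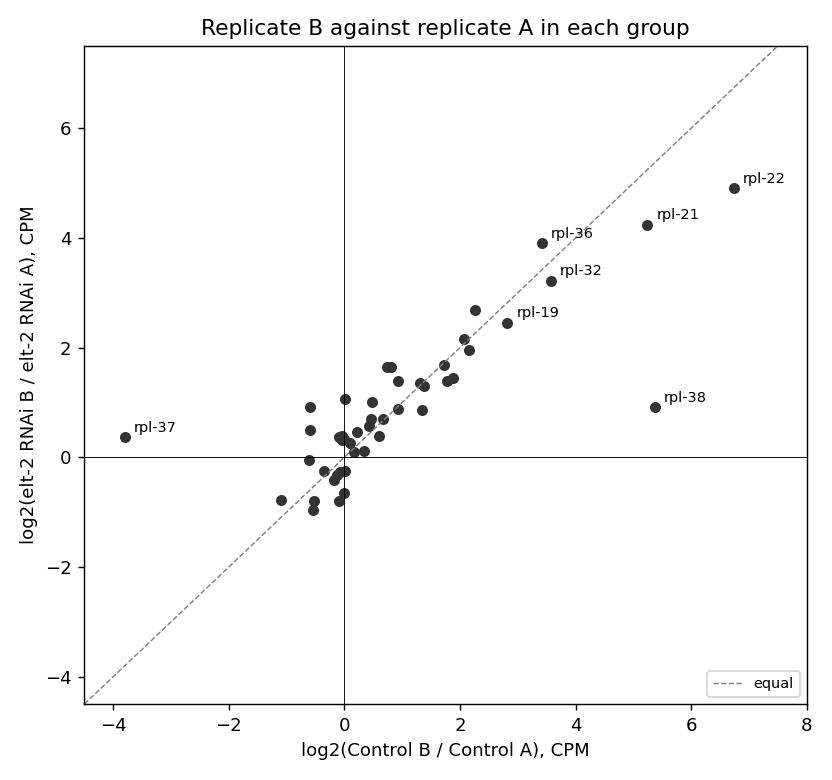
log2 ratio of CPM in replicate B to replicate A for the 47 genes, Control on the x axis and elt-2 RNAi on the y axis, with the line of equality. Most points lie near the line (r = 0.81), with rpl-22, rpl-21, rpl-32 and rpl-36 at the upper right, and rpl-38 and rpl-37 depart from it.

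Library B was the highest of its group for 27 of 47 genes in Control and for 27 of 47 in elt-2 RNAi, and elt-2 RNAi C was the lowest of its group for 26. The median absolute log2 difference between libraries over the 47 genes was 0.31 between the A libraries of the 2 groups and 0.38 between the B libraries, but 0.74 between the C libraries. Within a group it ran from 0.48, between Control A and C, to 0.95, between elt-2 RNAi B and C. Over these 47 genes the A libraries and the B libraries were thus closer across groups than to any other library of their own group, and the C libraries were not. Over the 628 other genes with a mean of at least 1000 counts this held for the A libraries only. There the difference was 0.37 between the A libraries, 0.997 between the B libraries and 0.77 between the C libraries, and 0.56 to 0.81 within a group.

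The features of gene structure checked were nearly flat against this pattern. The log2 ratio of B to A in Control had r = 0.05 with transcript length, r = 0.04 with coding length, r = -0.05 with the length of the 3′ UTR and r = 0.04 with the number of exons, over 47 genes, and Spearman's rho lay between -0.11 and 0.18. Level was set against another measure, the largest ratio between replicates at library size, and was not flat. Log2 mean CPM had r = -0.27 and rho = -0.48 with the log2 of that ratio. The coding length had a median of 477 bases, between 153 and 1203, and the 3′ UTR a median of 49 bases and a maximum of 240. The genes were scattered over the genome, with 15 on chromosome I, 8 on II, 9 on III, 8 on IV, 5 on V and 2 on X. In the annotation 13 of them overlap a protein-coding gene and 8 hold a snoRNA.

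The list was split by the ratio at library size. By this split 15 genes had a ratio of at most 2 in both groups, 19 over 2 in both, 2 over 2 in Control only and 11 over 2 in elt-2 RNAi only. The 15 steady genes, among them rla-0, rla-2, rpl-18, rpl-24.1, rpl-11.2, rpl-13 and rpl-26, took up 11.8%, 12.02% and 13.95% of counts in Control and 12.8%, 11.8% and 11.13% in elt-2 RNAi. The 19 sharp genes took up 3.34%, 11.9% and 7.12% in Control and 2.75%, 8.35% and 3.24% in elt-2 RNAi. The split was made on the same values that it describes, so these shares carry no test.

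**Figure D4:**
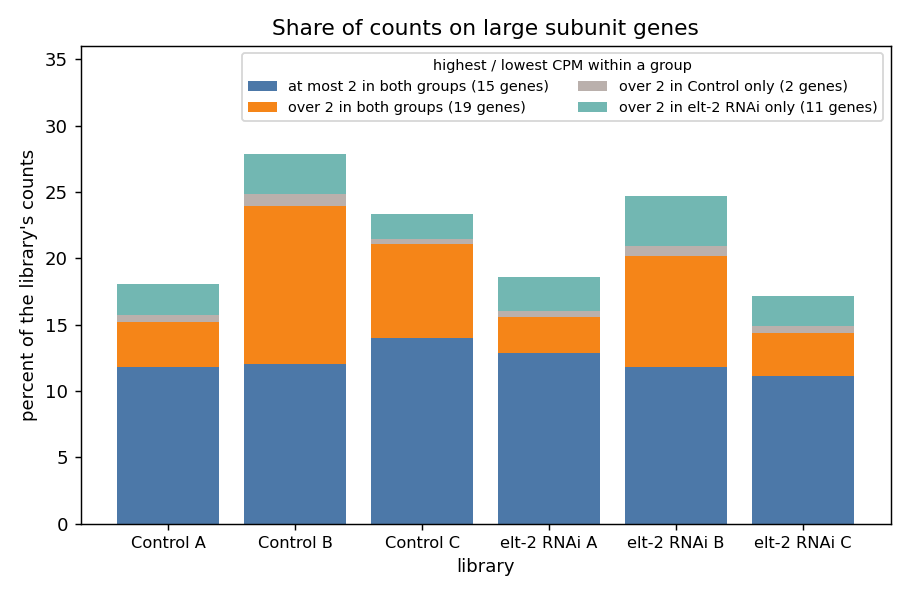
Percent of each library's counts on the 47 large subunit genes, stacked by whether the ratio of highest to lowest CPM within a group, at library size, was at most 2 or over 2. The 15 genes at most 2 in both groups form a band of 11.13% to 13.95% in every library, and the 19 genes over 2 in both run from 2.75% to 11.9%.

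The comparison of elt-2 RNAi with Control asked which genes need elt-2 in the L1 larva. No large subunit gene passed edgeR's quasi-likelihood test with TMM at a Benjamini-Hochberg adjusted p under 0.1: 0 of 47 were lower, against 2.61% of the 10063 genes tested, and 0 were higher, against 0.199%. At an unadjusted p under 0.05, 3 were lower (rpl-38, rpl-37 and rpl-23), against 1026 of the 10063 genes tested, and 0 higher, against 436. With library size, 2 of 47 were lower, against 1.48% of genes tested, and 0 higher, against 0.517%. DESeq2's Wald test called the same 2 genes lower, against 5.16% of the 10033 genes it adjusted, and 0 higher, against 0.897%. With no filter beyond 1 count, edgeR called 6 lower, against 4.54% of 17388 genes, and 0 higher, against 1.37%. Those 17388 include genes of low count that the filter took out of the other fits. With the library letter as a replicate block edgeR called 3 lower, against 4.41% of the 10063 genes, and 0 higher, against 0.507%. At an unadjusted p under 0.05, 4 of 47 were lower at library size, 9 with DESeq2, 13 with no filter and 13 with the block. In each of these fits 0 were higher, and the share of all genes at that p was not taken.

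The 2 genes called at library size were rpl-38 and rpl-37, and each call rested on 1 Control library. The log2 fold change of rpl-38 was -4.32 (SE 1.37, adjusted p = 0.178) with TMM and -3.44 (SE 0.84, adjusted p = 0.0343) with library size in edgeR's quasi-likelihood test, and without Control B at library size it was -0.46 (adjusted p = 0.884). For rpl-37 it was -3.03 (SE 0.88, adjusted p = 0.139) with TMM and -2.94 (SE 0.82, adjusted p = 0.0735) with library size, and without Control A at library size it was -0.45 (adjusted p = 0.614). Without both B libraries, a setting chosen after seeing the data, 7 genes were called lower at library size, against 1.52% of genes tested, and 0 with TMM, against 0.62%, and rpl-38 was not among the 7. Without elt-2 RNAi B alone, 10 were called lower at library size, against 1.72% of genes tested, among them rpl-22, rpl-21, rpl-36 and rpl-32, whose high elt-2 RNAi value was in that library. With TMM and without Control A, rpl-38 was the 1 gene called lower (adjusted p = 0.0560), against 4.93% of genes tested.

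The groups did not overlap in 1 of 47 genes with TMM values, rpl-37, where elt-2 RNAi was lower, against 10.9% of genes tested, and in 0 where elt-2 RNAi was higher, against 7.08%. At library size it was 0 of 47 in either direction, against 6.25% lower and 9.4% higher. Among the other sharp genes edgeR's quasi-likelihood test with TMM gave a log2 fold change of -2.58 (SE 1.73, adjusted p = 0.531) for rpl-22 and -2.52 (SE 1.46, adjusted p = 0.460) for rpl-21. It gave -1.99 (SE 1.06, adjusted p = 0.424) for rpl-32 and -1.74 (SE 1.15, adjusted p = 0.525) for rpl-36. In each of these 4 genes the SE was over 1 on the log2 scale and the groups overlapped.

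Above 0 in the TMM fit stood 5 of 47 genes, of which rpl-24.2 was at 0.45 (SE 0.47, adjusted p = 0.692), rpl-25.1 at 0.28 (SE 0.64, adjusted p = 0.871) and rpl-4, whose protein reaches into the exit tunnel, at 0.30 (SE 0.78, adjusted p = 0.888). For rpl-4 the libraries had 209, 288 and 152 CPM in Control and 117, 191 and 719 CPM in elt-2 RNAi, so elt-2 RNAi C alone was high. The genes steady at library size gave values such as -0.51 (SE 0.52, adjusted p = 0.690) for rla-0, -0.55 (SE 0.52, adjusted p = 0.660) for rla-2 and -0.51 (SE 0.49, adjusted p = 0.662) for rpl-11.2 with TMM.

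**Figure D5:**
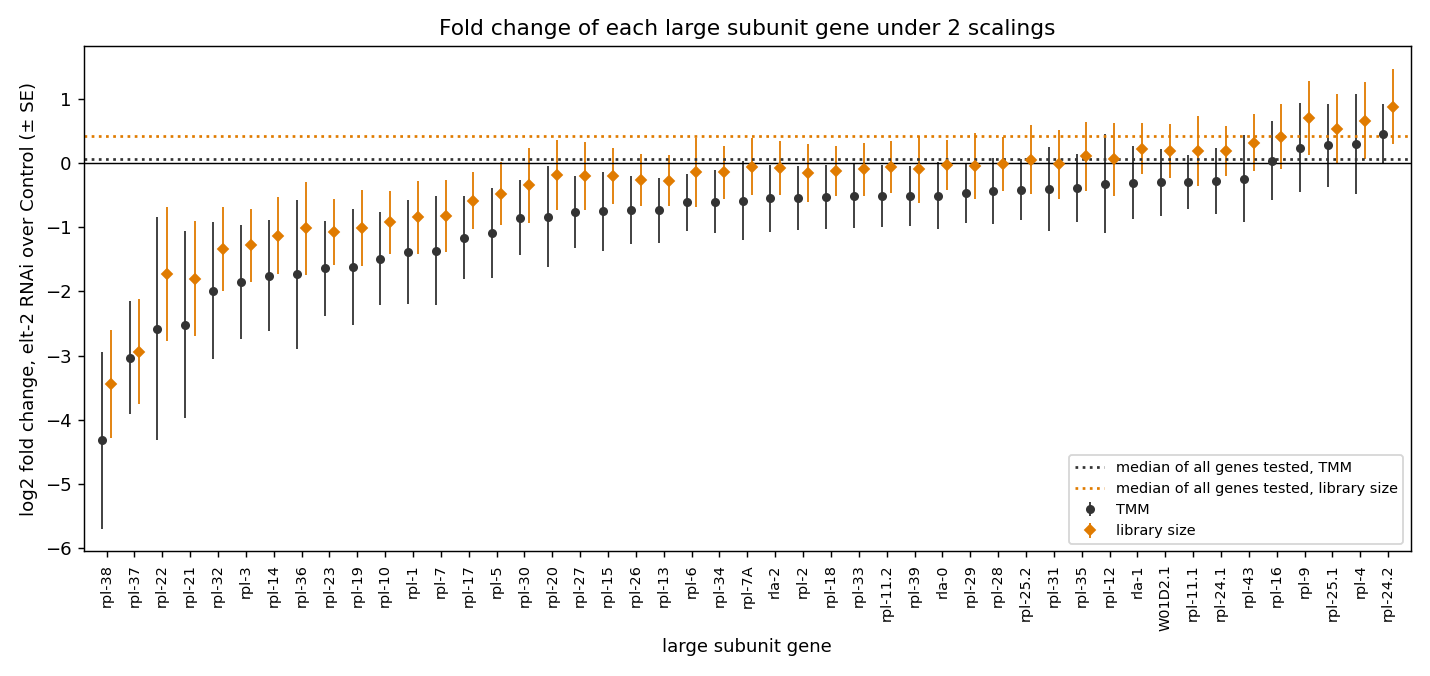
log2 fold change of elt-2 RNAi over Control (± SE) for each large subunit gene in the edgeR fit with TMM (circles) and with library size (diamonds), ordered by the TMM value, with dotted lines at the median of all 10063 genes tested under each scaling. Library size raises the genes, as it raises that median, and rpl-38 and rpl-37 stand at the far left under both scalings.

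The 2 scalings set the list at different heights. The median log2 fold change of the 47 genes was -0.58 with TMM and -0.14 with library size, while that of all genes tested was 0.06 and 0.42, and that of the 32 small subunit genes -0.62 and -0.09. For the 673 tested genes with a mean of at least 1000 counts, which include 45 of the 47, it was -0.19 and 0.21. Fitted values were below 0 for 42 of 47 genes with TMM, against 46.3% of all genes tested, and for 34 of 47 with library size, against 28.3%. Among the 673 abundant genes, 387 were below 0 with TMM and 276 with library size. The 15 genes whose ratio was at most 2 at library size lay between -0.75 and -0.27 with TMM and between -0.28 and 0.19 with library size, and all 15 stood below 0 with TMM but 12 with library size. Without Control B the median of the 47 genes was -0.23 with TMM. Of the 7 intestine markers 1, vha-6, was called lower (adjusted p = 0.0378 in edgeR's quasi-likelihood test with TMM) and 0 higher, while the fitted log2 fold changes of elt-7 (0.74) and ges-1 (0.15) were above 0. The summed level of the markers did not overlap between groups with asp-1 and overlapped without it. The part of the intestine markers in these medians was not tested.

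Other genes of the translation machinery stood nearer to the median of all genes. The 39 tested genes of the mitochondrial large subunit, a ribosome of its own, had a median log2 fold change of 0.13 with TMM and 0.45 with library size, and 17 genes of ribosome biogenesis and RNA polymerase I had 0.07 and 0.46. For 27 tested translation factors it was 0.14 and 0.52. In each of these 3 lists 0 genes were called in either direction by edgeR's quasi-likelihood test under either scaling.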

How the data were processed

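Per the labels and the study's methods, whole L1 larvae were collected in TRIzol, poly(A) RNA was enriched and barcoded 3SEQ libraries were pooled for sequencing. The deposited table holds raw read counts per gene for 6 libraries, and the submitters' processing notes name Bowtie 0.12.7. The counter, genome build and annotation are not given in the sources used here. All counts were used as deposited, and 0 columns of values were left out. Of the 20351 gene IDs, 19826 matched the WBcel235 annotation, which gave the chromosomes and gene structures. RefSeq names came from a separate RefSeq gene list. Totals ran from 13700707 to 22124319 counts per library.

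Groups came from the labels, with 3 libraries each. edgeR 4.0.16 (R 4.3.3) fitted elt-2 RNAi against Control by the quasi-likelihood test after filterByExpr, with TMM and with Benjamini-Hochberg adjustment over 10063 genes at 10%. SEs were the log2 fold change divided by the root of F. The alternatives were library size, DESeq2 size factors, library size without ribosomal protein genes, DESeq2 1.42.0, no filter beyond 1 count, a replicate block, a threshold of 0.05, and each library left out. The fits were also run on simulated counts with the same dispersion for every gene and no replicate effect. That simulation does not cover genes as variable between replicates as the sharp ones here.

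Genes described one by one were the 6 with the largest ratio between replicates, the 3 highest and 3 lowest by mean CPM, the 3 largest rises and falls, those sharing a number, and the rla genes. rpl-3, rpl-13, rpl-23 and rpl-26 were named after their values were seen. The members and lists were chosen with earlier results of these data known.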

Additional observations from a re-analysis of the deposited data

How the results depend on the processing

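The number of large subunit genes called higher was 0 in every fit run. The number called lower was 0 with TMM (2.61% of all genes tested), 2 with library size (1.48%) and 2 with DESeq2 (5.16%). With no filter beyond 1 count it was 6 (4.54% of 17388 genes). It was also 0 with DESeq2 size factors, with library size without ribosomal protein genes and with a threshold of 0.05. For these last settings the share of all genes called was not taken, so their 0 has no background beside it. The number called lower ran from 0 to 1 when 1 library was left out (0.744% to 4.93% of all genes tested), and at library size from 1 to 10 (1.22% to 2.19%), with 7 (1.52%) when both B libraries were left out (chosen after seeing the data). The median log2 fold change moved from -0.58 to -0.14 with library size and ran from -0.84 without Control A to -0.23 without Control B. The share of counts differed by -2.97 percentage points (elt-2 RNAi minus Control), a difference that ran from -5.48 without Control A to -0.60 without Control B. Per 100 counts outside the 100 genes with the most counts, the difference was -34.1. That value is not a share, because 29 of the large subunit genes are themselves among those 100 genes.

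Of 252 values of named genes under alternatives, 223 kept their direction and side of the threshold, 12 passed it and 17 turned their sign. The 223 include 18 values at the stricter threshold, which reuse the main fit. No named gene was called in that fit, so these values could not change and say nothing about stability. The 252 also hold 18 values from the fit without both B libraries, which was chosen after seeing the data. With library size and with library size without ribosomal protein genes, the log2 fold change became 0.19 and 0.086 for rpl-24.1, 0.22 and 0.14 for rla-1, 0.19 and 0.12 for rpl-11.1 and 0.19 and 0.094 for W01D2.1, and with library size 0.056 for rpl-25.2. With 1 library left out, rpl-22 ran from -6.42 to 0.96, rpl-24.1 from -0.47 to 0.088, rla-1 from -0.63 to 0.28, W01D2.1 from -0.52 to 0.11, rpl-25.1 from -0.70 to 0.72 and rpl-4 from -1.10 to 0.95. The sign turned without Control B for the first 4 and without elt-2 RNAi C for the last 2. The cause was not tested.

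With the library letter as a replicate block, 3 genes were called lower (rpl-37, rpl-3 and rpl-36), against 4.41% of genes tested, and rpl-25.1 became -0.14 and rpl-4 -0.24. Libraries of the same letter deviated together over all genes tested in A (r = 0.34) and B (r = 0.41) but not in C (r = 0.02), and Control C with elt-2 RNAi A, of different letters, had r = 0.34 too. Over the large subunit genes alone, r was 0.57 in A, 0.77 in B and -0.11 in C. There Control C with elt-2 RNAi A had r = -0.10 and Control A with elt-2 RNAi C had r = 0.30. The letters were not taken as pairs in the main fit, and the block is shown as an alternative.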
